A study of Mus musculus with 12 samples.

Results

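The mouse Fc gamma receptors, the signalling chain they share and the kinase that this chain recruits were followed in compressed macrophages. The 6 genes are Fcgr1, Fcgr2b, Fcgr3, Fcgr4, Fcer1g and Syk, taken by their symbols, which are 6 of the 56941 gene IDs in the count table and 6 of the 15001 genes with enough counts to test. The cells were RAW264.7, an established mouse macrophage-like line that came from a virus-induced tumor and grows continuously in culture. All cells sat on a porous insert under an agarose cushion for 24 h, in 6 control libraries with the cushion alone and in 6 compressed libraries with a weight on the cushion that applied 0.14 kPa. The cushion is therefore common to both groups, both groups are the same line, and the labels name no genetic change, antibody or cytokine in either. Whether the 6 libraries of each group are separate cultures is not stated in the labels, and the p-values reflect library-to-library spread that may be technical.

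Fc gamma receptors bind the constant part of IgG antibodies and let macrophages take up antibody-coated particles. Fcgr1 encodes the high-affinity receptor, while Fcgr3 and Fcgr4 encode activating receptors of lower affinity. These activating receptors pair with the common gamma chain encoded by Fcer1g, whose cytoplasmic tail carries an immunoreceptor tyrosine-based activation motif (ITAM). Src family kinases phosphorylate the motif, Syk docks on it and signals to the actin cytoskeleton and the oxidase of the phagosome. Fcgr2b encodes the inhibitory receptor, which carries an inhibitory motif of its own and opposes this signal through phosphatases, so the balance of activating to inhibitory receptors sets the threshold of the response. In bulk RNA, more cells that express a gene and more RNA per cell cannot be told apart.

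The libraries held 37948795 to 40463545 counts in the controls and 33460807 to 39103987 in the compressed group. Compressed replicate 6 stood apart. Its counts fell by 0.22 on the log2 scale for each doubling of transcript length relative to the mean of its group, which includes that library. This slope lay between -0.015 and 0.070 in the other 11 libraries. The changes of the 6 genes are therefore given with and without it. All 8 macrophage markers were measured, with a summed level of 5487 to 5924 counts per 1000000 (CPM) in the controls and 6761 to 7834 CPM in the compressed libraries. Of these markers 4 were called higher and 2 lower under compression, beside 24.5% and 21.9% of all tested genes. Lyz2, 1 of those called higher, was the largest part of the sum, with means of 2678 and 4204 CPM. Those called lower were Csf1r (1616 and 1385 CPM) and Cd68 (720 and 640 CPM), so the sum does not show a general rise. Of the other cells that use these receptors, the B cell markers summed to at most 0.155 CPM, the neutrophil markers to at most 0.557 CPM and the NK cell markers to at most 0.0269 CPM in any library, and none of these was measured well enough to test. The mast cell and basophil markers summed to at most 0.743 CPM. Only Gata2 among them was tested, with a log2 fold change of 0.04 (edgeR adjusted p = 0.881).

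The DNA just before the RefSeq start of the receptor genes is shown because the 4 receptors did not move together under compression. The sequences are from RefSeq on the GRCm38.p6 assembly, whereas the deposited counts were made on GRCm39, and each is printed 5′ to 3′ on the strand of its gene. Fcgr1 (chr3:96293970-96294219, minus strand) and Fcgr3 (chr1:171059404-171059653, minus strand) are shown from 250 bases before the RefSeq start to the base before it. Fcgr4 (chr1:171018676-171018919, plus strand) is shown from the same distance to 7 bases before its start. For Fcgr2b (chr1:170976087-170976116, minus strand) 30 bases around a single match are shown, from 45 to 16 bases before the RefSeq start. Transcripts of Fcgr2b in GENCODE M21 hold 56 bases ahead of that start, so the printed bases may be transcribed. Capitals mark matches to short motifs of factors that act in macrophages.
Fcgr1: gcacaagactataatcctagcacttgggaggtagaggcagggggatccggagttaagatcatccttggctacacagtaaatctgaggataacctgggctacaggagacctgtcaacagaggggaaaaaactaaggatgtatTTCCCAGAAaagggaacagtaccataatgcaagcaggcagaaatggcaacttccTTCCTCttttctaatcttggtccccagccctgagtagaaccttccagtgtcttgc
Fcgr2b: gaccgtttctTTTCACTTCCccatttggac
Fcgr3: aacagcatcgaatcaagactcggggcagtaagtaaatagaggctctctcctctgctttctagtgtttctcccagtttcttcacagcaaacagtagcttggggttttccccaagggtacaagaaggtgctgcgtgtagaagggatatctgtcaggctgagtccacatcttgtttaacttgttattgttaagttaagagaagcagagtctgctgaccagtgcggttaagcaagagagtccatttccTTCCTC
Fcgr4: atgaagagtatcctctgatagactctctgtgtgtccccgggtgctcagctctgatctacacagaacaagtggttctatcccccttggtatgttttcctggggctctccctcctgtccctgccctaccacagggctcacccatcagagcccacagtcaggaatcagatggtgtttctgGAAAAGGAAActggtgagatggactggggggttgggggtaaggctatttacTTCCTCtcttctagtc

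Windows of 250 bases before each RefSeq start were searched on both strands for 5 motifs, and a match is a description of the letters only. The core of the PU.1 motif, GAGGAA, was in the windows of Fcgr1, Fcgr3, Fcgr4 and a second start of Syk, and in 23.3% of all 32851 windows. PU.1 is the transcription factor that specifies macrophages. In Fcgr3 this match was at the last 6 bases before the first start, or 15 to 10 bases before the second. In Fcgr4 it began 22 bases before the start. The window of Fcgr1, the receptor that fell, also held a gamma-activated sequence, TTCNNNGAA, from 109 to 101 bases before the start, a motif present in 7.02% of windows. Fcgr2b held a composite ETS and IRF motif (GGAA, then 2 bases of any kind, then GAAA) that was in 2.30% of windows. The RefSeq start lies 56 bases into the matching GENCODE M21 transcripts of Fcgr2b, and the second Syk start 29 bases into its own. The matches of Fcgr2b and of the second start of Syk may therefore lie in transcribed bases. Fcgr4 held a pair of interferon response half-sites (GAAA, then 2 bases of any kind, then GAAA on either strand), which was in 2.98% of windows. The AP-1 motif TGANTCA, found in 6.75% of windows, was in none of the members' windows, and neither Fcer1g nor the first start of Syk held any of the 5. No match overlapped another in these windows. The plot of these windows shows that no motif was shared by all the receptors that rose.

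**Figure D1:**
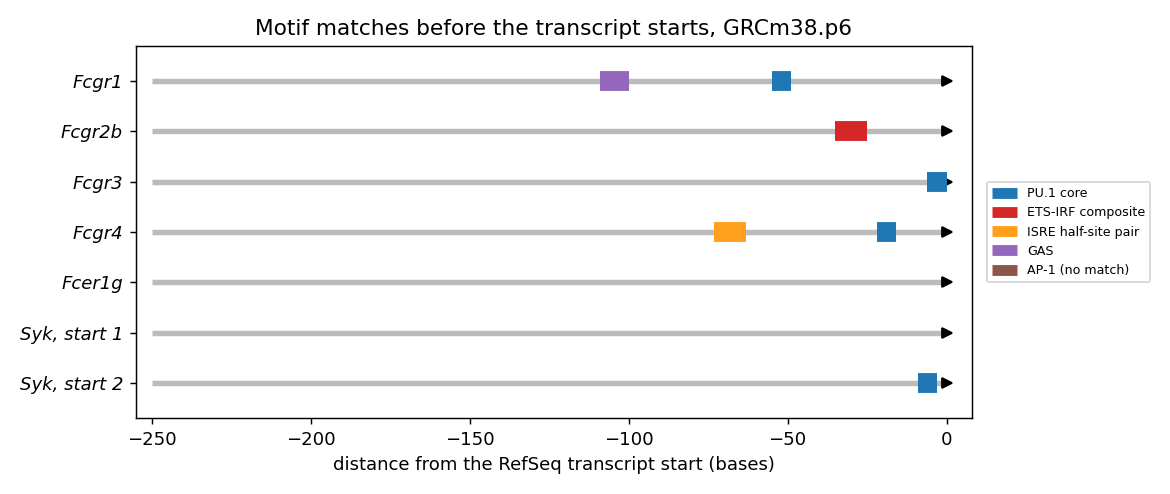
Position of each motif match in the 250 bases before the RefSeq start of each gene (horizontal axis, bases from the start, arrowhead at the start); each colour is a motif. PU.1 core matches lie within 55 bases of the start of Fcgr1, Fcgr4, the first start of Fcgr3 and the second start of Syk, and Fcer1g has no match.

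Compression changed the receptors in opposite directions. Fcgr3 rose most, Fcgr2b and Fcgr4 rose less and Fcgr1 fell, whereas the shared chain Fcer1g did not pass the test. Syk was higher in 5 of the 6 compressed libraries than in any control. In all, 4 of the 6 genes were called higher and 1 lower by the quasi-likelihood test of edgeR (Benjamini-Hochberg adjusted p up to 0.05). Among all 15001 tested genes 24.5% were called higher and 21.9% lower, or 46.4% in all, so a call by itself was common in these libraries. The CPM of the groups did not overlap for 4 of the 6, and this held for 33.6% of all genes. The median log2 fold change over all tested genes was 0.02.

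Fcgr3, an activating receptor, had a CPM of 18.7 in the lowest control library, 19.9 at the median and 21.8 in the highest. The compressed libraries ran from 46.9 through a median of 49.4 to 56.5 CPM. Every compressed library was thus more than double the median control. The mean went from 20.1 ± 1.17 to 50.8 ± 3.66 CPM (SD, n = 6 each), a log2 fold change of 1.34 (SE 0.058, edgeR adjusted p = 1.06e-09) or 2.53-fold. By size this change ranked 464 among the 15001 tested genes. It was 1.32 without compressed replicate 6, with an edgeR adjusted p of 9.23e-15.

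Fcgr2b, the inhibitory receptor, had 34.9, 38.8 and 42.6 CPM in the lowest, median and highest control. Under compression these values were 52.7, 57.2 and 63.7 CPM. All compressed libraries lay above all controls. The mean rose from 38.8 ± 2.65 to 58.0 ± 4.15 CPM (SD, n = 6 each), by 0.58 on the log2 scale (SE 0.060, edgeR adjusted p = 3.29e-06), and by 0.56 without compressed replicate 6. Fcgr2b and Fcgr3 are near-identical over part of their sequence. Of all 50-base stretches in the annotated transcripts of Fcgr3, 10.2% also occur in those of Fcgr2b, and 4.48% of those of Fcgr2b occur in Fcgr3, with 6.72% of them in any other gene. How the authors counted reads that fit both genes is not given in the sources used here, so a part of either value is uncertain. The other 4 members shared no such stretch with another gene.

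Fcgr4, an activating receptor, was the least abundant, with 186 to 267 counts in a library. Its control values ran from 4.78 through 5.21 to 5.31 CPM. In the compressed libraries the lowest, median and highest were 6.02, 6.29 and 7.18 CPM. The groups did not overlap, although the step between them was small. Its mean rose from 5.15 ± 0.191 to 6.42 ± 0.436 CPM (SD, n = 6 each), a log2 fold change of 0.32 (SE 0.062, edgeR adjusted p = 7.68e-04), and 0.33 without compressed replicate 6.

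Fcgr1, the high-affinity receptor, was the member that fell. Control libraries held 56.2 CPM at the lowest, 59.0 at the median and 63.2 at the highest. Compressed libraries held 40.7, 44.0 and 49.99 CPM. No compressed library reached the lowest control. The mean of 59.1 ± 2.55 CPM became 45.0 ± 3.77 CPM (SD, n = 6 each), a log2 fold change of -0.39 (SE 0.058, edgeR adjusted p = 7.95e-05) or 0.761 of the control level. Compressed replicate 6 had the highest compressed value, and without it the change was -0.43 (edgeR adjusted p = 2.77e-08).

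Fcer1g, the common chain, had 239.8 CPM in the lowest control, 255 at the median and 271 in the highest. The compressed values were 258 at the lowest and 267 at the median, with 438 CPM in compressed replicate 6. The other 5 compressed libraries ended at 273 CPM, so that library alone set the group apart. The group means were 255 ± 11.1 and 294 ± 70.7 CPM (SD, n = 6 each), and the log2 fold change of 0.20 (SE 0.12) had an edgeR adjusted p of 0.178. Without compressed replicate 6 the compressed mean was 265 ± 6.76 CPM (SD, n = 5), with a log2 fold change of 0.05 (SE 0.032, edgeR adjusted p = 0.138). Fcer1g has short transcripts, with a median of 678.5 bases, and replicate 6 held relatively more counts of short transcripts. With the trend on transcript length removed from every library the log2 fold change was 0.12 (SE 0.047) and the edgeR adjusted p was 0.0397, so the call depended on that step.

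Syk, the kinase that docks on the activation motif, had 87.8, 94.1 and 99.0 CPM in the lowest, median and highest control. Its compressed median was 135 CPM and its highest 148 CPM, but compressed replicate 6 held 76.0 CPM. This library lay below all controls, while the other 5 lay above all controls, from 125 to 148 CPM. The means were 93.7 ± 3.66 and 127 ± 25.97 CPM (SD, n = 6 each), and the log2 fold change was 0.43 (SE 0.12, edgeR adjusted p = 0.0112). Without that library the compressed mean was 137 ± 8.49 CPM (SD, n = 5) and the log2 fold change 0.54 (SE 0.039, edgeR adjusted p = 2.40e-10), or 1.46-fold. The transcripts of Syk are long, with a median of 5122 bases, and removal of the trend on transcript length gave 0.45 (SE 0.059, edgeR adjusted p = 1.62e-05).

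**Figure D2:**
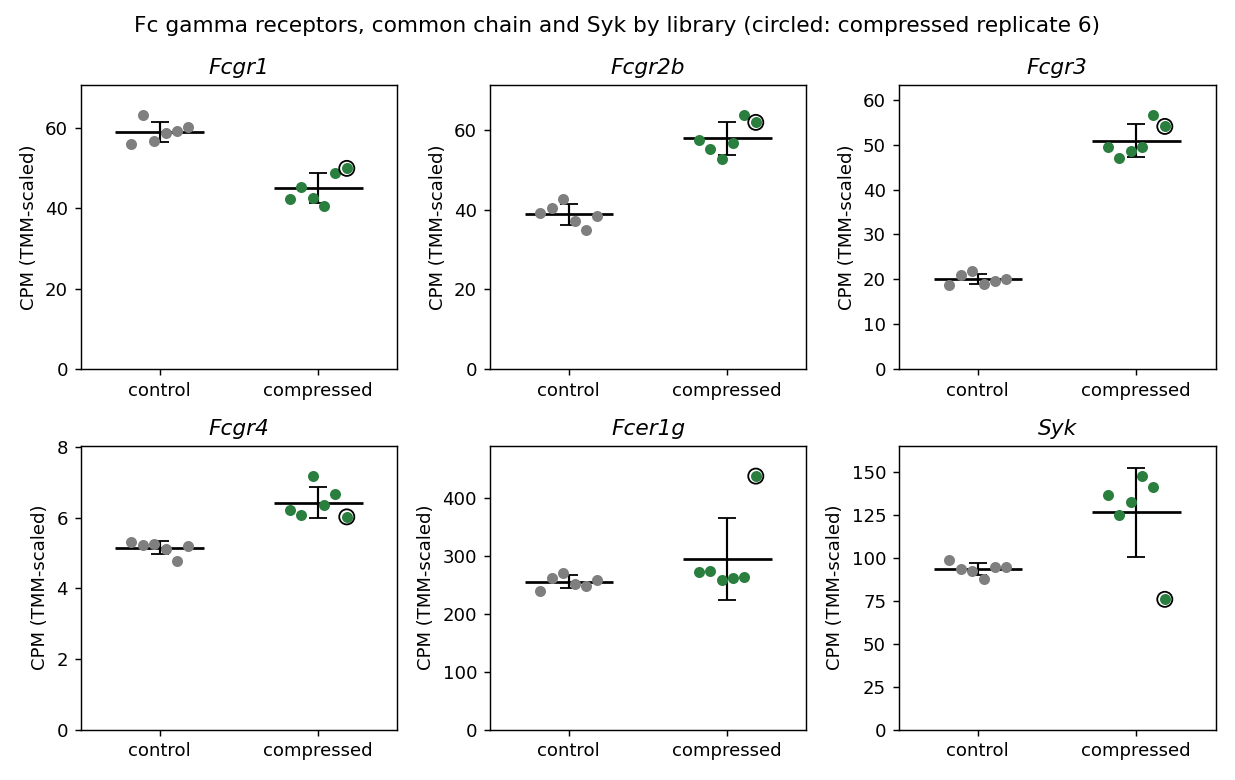
CPM of each gene in each library (points; vertical axes start at 0), with the mean and SD of 6 control and 6 compressed libraries; circles mark compressed replicate 6. Fcgr1, Fcgr2b, Fcgr3 and Fcgr4 do not overlap between the groups, while replicate 6 is highest for Fcer1g at 438 CPM and lowest for Syk at 76.0 CPM.

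The settings of the analysis moved the receptors little. DESeq2 gave log2 fold changes of -0.41 for Fcgr1, 0.56 for Fcgr2b, 1.33 for Fcgr3 and 0.30 for Fcgr4, and each passed its Wald test at an adjusted p of 0.05. For Fcer1g it gave 0.19 (DESeq2 adjusted p = 0.240) and for Syk 0.42 (DESeq2 adjusted p = 7.47e-03). With compressed replicate 6 left out, edgeR again called 4 members higher and 1 lower, beside 33.8% and 32.2% of the 15117 genes tested then.

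**Figure D3:**
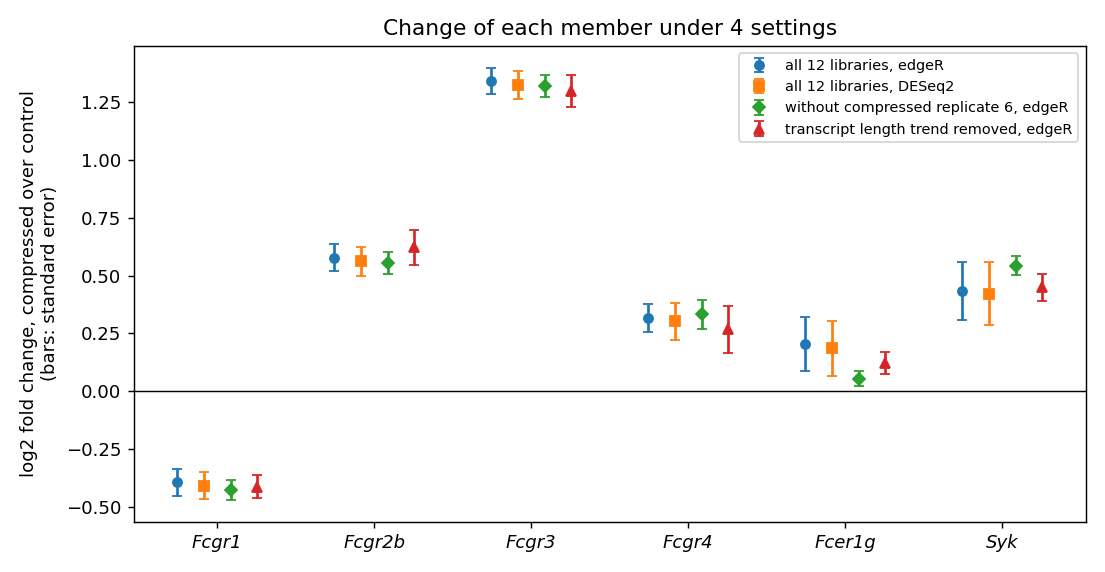
Log2 fold change of each gene, compressed over control (vertical axis), with bars of 1 standard error, under edgeR with all 12 libraries, DESeq2, edgeR without compressed replicate 6 and edgeR with the transcript length trend removed. The receptors keep their place from -0.41 for Fcgr1 to 1.33 for Fcgr3 under DESeq2, while Fcer1g moves from 0.20 to 0.05 and Syk from 0.43 to 0.54 without replicate 6.

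The balance of activating to inhibitory receptor was compared within each library, where the scaling of libraries cancels. The log2 ratio of Fcgr3 to Fcgr2b counts rose from -0.95 ± 0.076 to -0.19 ± 0.042 (SD, n = 6 each; control range -1.06 to -0.82, compressed range -0.23 to -0.11). The ratio of Fcgr1 to Fcgr2b moved the other way, from 0.61 ± 0.12 to -0.37 ± 0.081 (control range 0.42 to 0.76, compressed range -0.48 to -0.28). Neither ratio overlapped between the groups, and each difference, of 0.76 and -0.97, had the smallest p that 6 against 6 libraries can give (exact permutation test, two-sided, p = 0.00216, adjusted over 15 pairs 0.00406). Counts of Fcgr1 were thus 1.52 times those of Fcgr2b in the controls and 0.776 times those in the compressed libraries. The third activating receptor, Fcgr4, fell slightly against Fcgr2b, by 0.26 on the log2 scale (exact permutation test, two-sided, adjusted p = 0.0162), and its ranges overlapped.

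Over all 15 pairs of the 6 genes, 11 ratios passed the exact permutation test after adjustment, and 8 did not overlap between the groups. The pairs reuse the same 6 genes, so they are not 15 separate results. The share among pairs of other genes was not computed. Of single genes, 46.4% were called and 33.6% did not overlap, so such counts may be common among other pairs too. The largest shift was that of Fcgr1 to Fcgr3, from 2.95 to 0.884 in counts, a log2 difference of -1.74. Fcgr3 also rose against Fcer1g, by 1.16 on the log2 scale, against Fcgr4 by 1.02 and against Syk by 0.94. The pairs that did not pass were Fcgr2b with Syk, Fcgr4 with Fcer1g, Fcgr4 with Syk and Fcer1g with Syk. Without compressed replicate 6 the ratio passed in 14 of the 15 pairs, and only Fcgr2b with Syk did not, with a log2 difference of 0.01 (exact permutation test, adjusted p = 0.835).

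Levels were also set per kilobase of the median protein-coding transcript, to compare one gene with another. In the controls Fcer1g had the highest mean level, at 376 CPM per kb, followed by Fcgr2b at 25.5, Fcgr1 at 22.8, Syk at 18.3, Fcgr3 at 15.2 and Fcgr4 at 4.10 CPM per kb. Of these neighbours only Fcgr2b and Fcgr1 overlapped in range (22.97 to 28.04 and 21.7 to 24.4). Under compression Fcer1g stayed first with 434 CPM per kb, or 391 without replicate 6, and Fcgr3 at 38.4 and Fcgr2b at 38.1 CPM per kb could not be separated by their ranges (35.5 to 42.7 and 34.6 to 41.9). Syk followed with 24.7 CPM per kb, or 26.7 without replicate 6, then Fcgr1 with 17.4 and Fcgr4 with 5.11 CPM per kb. The compressed ranges of Syk (14.8 to 28.9) and Fcgr1 (15.7 to 19.3) overlapped. Without replicate 6 they did not (24.5 to 28.9 and 15.7 to 18.9). The order rests on the length chosen: the coding transcripts of Fcgr2b run from 1084 to 3544 bases, and with the longest its control level was 11.0 CPM per kb.

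As a share of the 4 receptors' summed CPM per kb, Fcgr3 went from 22.4% ± 0.689 to 38.8% ± 0.608 and Fcgr1 from 33.8% ± 1.56 to 17.5% ± 0.805 (SD, n = 6 each). Fcgr2b held 37.7% ± 1.47 and 38.5% ± 0.787, and Fcgr4 6.07% ± 0.222 and 5.18% ± 0.526. The sum itself rose from 67.6 ± 2.74 to 99.0 ± 6.52 CPM per kb. On CPM without length the shares of Fcgr3 and Fcgr1 moved the same way, from 16.3% to 31.7% and from 48.0% to 28.1%, while that of Fcgr2b went from 31.5% to 36.2%. Shares of a sum depend on each other, so the ratios above carry the tests.

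**Figure D4:**
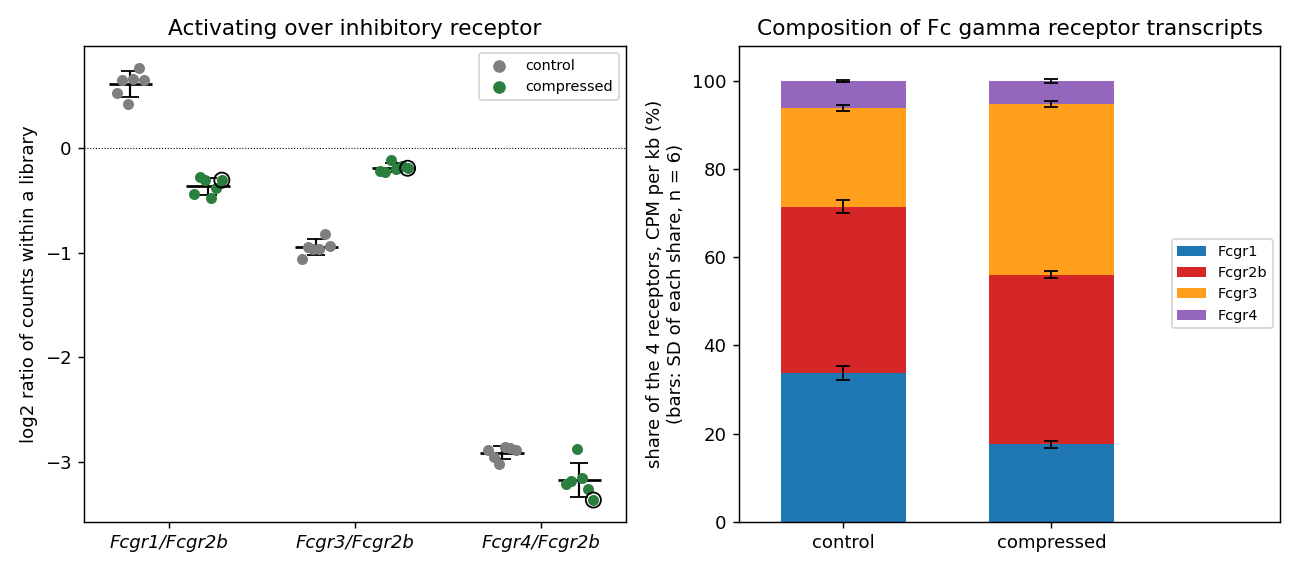
Left, log2 ratio of the counts of each activating receptor to those of Fcgr2b within a library (vertical axis), as points for 6 control (grey) and 6 compressed (green) libraries with mean and SD, replicate 6 circled. Right, mean share of each receptor in the summed CPM per kb of the 4 receptors (percent, bars of SD of each share, n = 6), where Fcgr3 goes from 22.4% to 38.8% and Fcgr1 from 33.8% to 17.5%.

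Across the 12 libraries the log2 CPM of Fcgr2b and Fcgr3 had a Pearson correlation of 0.98, which includes the difference between the groups. With the group means removed it was 0.80, and 0.78 over the 11 libraries without compressed replicate 6. These genes share the stretches described above. Fcer1g and Syk had a correlation of -0.96 after the group means were removed and of -0.40 once replicate 6 was left out, so the first value rests on that library.

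The genes whose log2 CPM was most like that of each member were found by Pearson correlation over the same 12 libraries, as a description with no test. For Fcgr1 they were Ifi44l (0.974), Ifi44 (0.970) and Aida (0.967), which fell with it. Those for Fcgr2b were Pld3 (0.994) and Pdgfb (0.988), and those for Fcgr3 were Upp1 (0.997), Spink5 (0.997) and Il1rn (0.997). Tubg2 (0.978), Grk5 (0.969) and Celf3 (0.963) were nearest to Fcgr4. Selenok (0.994), Commd4 (0.994) and Tyrobp (0.992) were nearest to Fcer1g, and Ankrd50 (0.994), Rassf8 (0.992) and App (0.991) to Syk.

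With the group means removed, the nearest genes were largely others. Upp1 was then nearest to Fcgr2b (0.980), Cd200r2 to Fcgr1 (0.909), Cers2 to Fcgr3 (0.917) and Bard1 to Fcgr4 (0.878). Selenok was still nearest to Fcer1g (0.995), and Lasp1 was nearest to Syk (0.995). The nearest without compressed replicate 6 were Clec2l to Fcer1g (0.943) and Stat3 to Syk (0.931). Each nearest gene was picked from all measured genes over few libraries, so these values describe the libraries only.

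Fcgr2b, Fcgr4 and Fcgr3 lie side by side on chromosome 1. Of the 6 other genes that neighbour this cluster, 3 were measured and 1, Fcrlb, was called higher, while Cfap126 had a log2 fold change of -0.02 and Sdhc of 0.08. Around all members together, 13 of 24 neighbours were measured, 7 of them called higher and 1 lower, beside 24.5% and 21.9% of all tested genes.

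The genes around the receptors were then counted, in lists written from general knowledge. Of 138 measured list genes, each taken once, 63 were called higher and 13 lower by edgeR, and 62 did not pass. This is 55.1% called, beside 46.4% of all tested genes, of which 24.5% were higher and 21.9% lower. The median log2 fold change was 0.19, against 0.02 for all tested genes. The counts were 89 higher and 25 lower without compressed replicate 6, beside 33.8% and 32.2% of all genes tested then.

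Among the other receptors for immunoglobulin and the Fc receptor-like genes, 4 of 13 were measured. By edgeR 2 were higher and 2 lower, beside 24.5% and 21.9% of all tested genes. Fcrlb, an Fc receptor-like gene beside Fcgr2b, rose from 1.07 ± 0.141 to 2.66 ± 0.415 CPM (SD, n = 6 each; log2 fold change 1.30, edgeR adjusted p = 1.70e-06). Fcgrt, the neonatal receptor that recycles IgG inside cells, rose from 3.56 to 5.44 CPM, by 0.61 on the log2 scale. Trim21, the cytosolic receptor for antibody-bound virus, fell from 11.9 to 8.63 CPM (log2 fold change -0.47, edgeR adjusted p = 1.83e-04). Fcrl1, another Fc receptor-like gene, had a log2 fold change of -0.18 and also fell.

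Of 16 measured receptors that signal through the same kind of adaptor, 9 were called higher and 0 lower by edgeR, beside 24.5% and 21.9% of all tested genes. At an unadjusted p under 0.05 there was 1 lower, DESeq2 called 0 lower, and without compressed replicate 6 the counts were 11 and 1, beside 33.8% and 32.2% of all genes. The increases were led by Trem1, an amplifier of inflammatory responses, at 1.97 on the log2 scale but only 0.618 CPM in the controls. Clec4e, the Mincle receptor that pairs with the same common chain, rose from 126 ± 6.73 to 369 ± 17.6 CPM (SD, n = 6 each; log2 fold change 1.55, edgeR adjusted p = 1.74e-10). Clec7a, the beta-glucan receptor Dectin, which carries an activation motif of its own in place of an adaptor, rose by 1.53, and Clec4n, its relative for fungal mannans, by 1.44.

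Of 8 measured ITAM adaptors and Src family kinases, 5 were higher and 1 lower, beside 24.5% and 21.9% of all tested genes. The counts were the same without compressed replicate 6, beside 33.8% and 32.2% of all genes tested then. Fgr, a Src family kinase of myeloid cells, rose from 39.8 ± 2.60 to 87.5 ± 7.39 CPM (SD, n = 6 each; log2 fold change 1.14, edgeR adjusted p = 1.06e-08). Its relative Src rose by 0.81 on the log2 scale, and Hcst, an adaptor whose tail carries another kind of motif, by 0.68, or 0.45 without compressed replicate 6. Fyn, the member called lower, changed by -0.12 and kept its call under 11 of 20 alternatives. Tyrobp, the other ITAM adaptor of macrophages, had 256 ± 10.1 and 289 ± 66.9 CPM (SD, n = 6 each) and did not pass, with a log2 fold change of 0.18 (edgeR adjusted p = 0.228), or 0.03 (edgeR adjusted p = 0.352) without compressed replicate 6. As with Fcer1g, that library was its highest, at 426 CPM.

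Downstream of Syk, 10 of 34 measured adaptors and effectors were higher, 3 lower and 21 did not pass. In all 38.2% of this list was called, beside 46.4% of all tested genes, with 24.5% of all genes higher and 21.9% lower. The median log2 fold change was 0.07, and compressed replicate 6 lay 0.62 below the rest of its group at the median gene on the log2 scale. Without it 18 were higher and 7 lower, beside 33.8% and 32.2% of all genes, and the list's median was 0.14, beside 0.00 for all genes. Malt1, the paracaspase that links Syk to NF-kappaB, rose from 61.5 to 177 CPM (log2 fold change 1.53, edgeR adjusted p = 7.44e-07). Lat, an adaptor at 0.696 CPM in the controls, rose by 1.60, Prkcd by 0.56 and Lcp2, the scaffold SLP-76, by 0.53. Nfatc1, a calcium-responsive transcription factor, fell from 500.3 to 258 CPM (log2 fold change -0.95, edgeR adjusted p = 1.39e-04). Pik3cd, a phosphoinositide kinase subunit of leukocytes, and the kinase Btk fell with log2 fold changes of -0.70 and -0.20.

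The list of phosphatases and inhibitory receptors had 17 of 27 measured genes higher and 1 lower, beside 24.5% and 21.9% of all tested genes. The other 9 did not pass, and the median log2 fold change was 0.35. Leaving out compressed replicate 6 gave 22 higher and 4 lower, beside 33.8% and 32.2% of all genes tested then. The inhibitory receptors Pilra and Pirb, both near 2 CPM or less in the controls, rose by 1.76 and 1.30 on the log2 scale. Cd300lf went from 19.3 to 39.7 CPM (log2 fold change 1.04, edgeR adjusted p = 3.53e-08) and Cd33 rose by 1.02. Csk, the kinase that holds Src family kinases inactive, was the member called lower, with a log2 fold change of -0.19. Inpp5d, the SHIP phosphatase through which Fcgr2b acts, was looked up after its values were seen. It had 197 ± 7.37 and 196 ± 39.9 CPM (SD, n = 6 each), a log2 fold change of -0.01 (edgeR adjusted p = 0.970), and 0.10 (edgeR adjusted p = 0.00884) without compressed replicate 6.

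Of the actin and membrane machinery of phagocytosis, 44 of 47 genes were measured, and 16 were higher, 6 lower and 22 did not pass, so that 50% were called beside 46.4% of all tested genes. The counts without compressed replicate 6 were 27 higher and 10 lower, beside 33.8% and 32.2% of all genes. Sphk1, a sphingosine kinase at 0.593 CPM in the controls, rose by 1.57 on the log2 scale. Marcksl1 rose by 0.68, and the class I myosins Myo1e and Myo1g, which act at the phagocytic cup, by 0.64 and 0.61. Was, the Wiskott-Aldrich protein that turns on branched actin, fell from 102 to 81.3 CPM (log2 fold change -0.33, edgeR adjusted p = 1.32e-04), and its partner Wipf1 changed by -0.26. Elmo1 (-0.33), Crkl (-0.28, or -0.18 without compressed replicate 6), Actr2 (-0.18) and Pak1 (-0.11) were also called lower, although Crkl kept its call under 9, Pak1 under 6, Wipf1 under 14 and Elmo1 under 17 of 20 alternatives.

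The phagocyte NADPH oxidase, which makes superoxide in the phagosome, had 5 of its 6 genes higher and 0 lower by edgeR, beside 24.5% and 21.9% of all tested genes, with 0 lower also at an unadjusted p under 0.05 and by DESeq2. Cybb, its catalytic subunit, rose from 382 ± 16.97 to 827 ± 117 CPM (SD, n = 6 each; log2 fold change 1.11, edgeR adjusted p = 1.87e-07). Ncf1, Rac2 and Ncf4 rose by 0.51, 0.30 and 0.27 on the log2 scale. Cyba had a log2 fold change of 0.17 (edgeR adjusted p = 0.382), and of -0.03 (edgeR adjusted p = 0.382) without compressed replicate 6, so its sign rests on that library. The counts were the same, 5 and 0, without compressed replicate 6, beside 33.8% and 32.2% of all genes tested then.

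**Figure D5:**
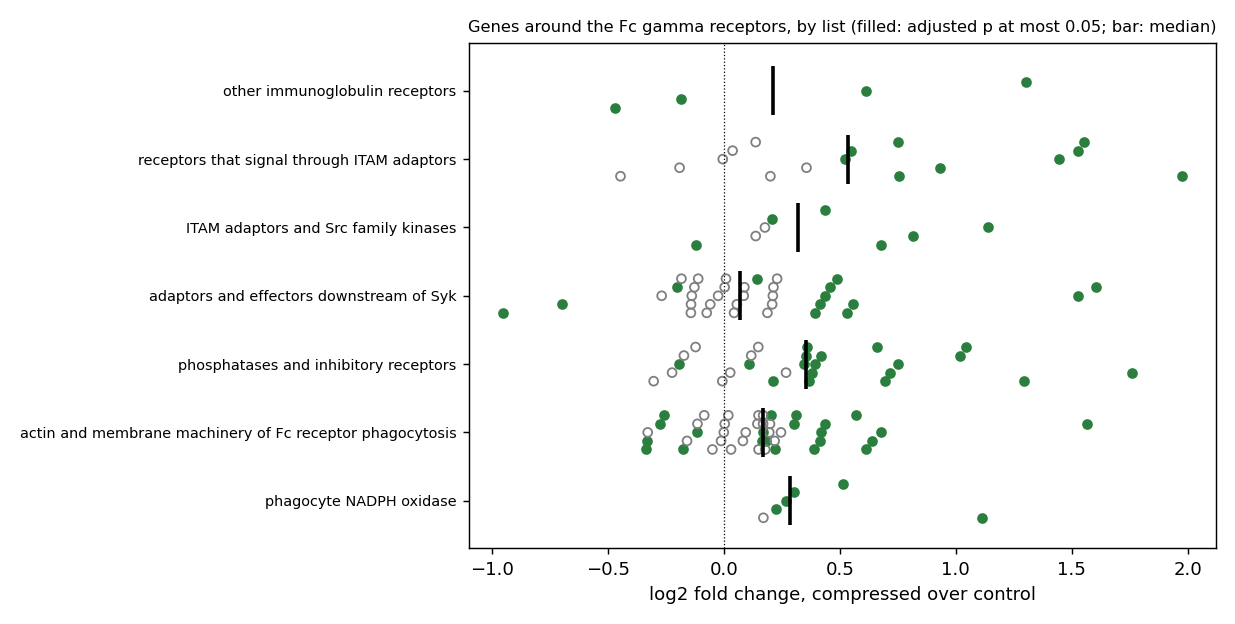
Log2 fold change, compressed over control (horizontal axis), of each measured gene in 7 lists around the receptors (rows); filled points have an edgeR adjusted p of 0.05 or less and bars are medians. Receptors that signal through ITAM adaptors have a median of 0.53, while adaptors and effectors downstream of Syk have a median of 0.07, or 0.14 without compressed replicate 6.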

How the data were processed

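The 12 libraries, 6 control and 6 compressed, are strand-specific mRNA libraries. The authors mapped the reads with STAR 2.7.2, and GRCm39 is the build in the submitters' notes. The deposited values are raw whole-number counts, 1 column per library, with 0 columns left unmatched to a sample. The study names the GENCODE mouse annotation, and its release, the counting program and the strand setting are not stated in the sources used here. Gene names and transcript lengths were taken from GENCODE M21 (GRCm38) by gene ID, which named 52000 of 56941 IDs.

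Genes that passed filterByExpr (minimum count 10) were scaled by TMM and tested with edgeR 4.0.16 in R 4.3.3 (quasi-likelihood F test, condition as the only term), and p-values were adjusted by Benjamini-Hochberg over the 15001 tested genes. CPM are counts per 1000000 of the TMM-scaled library size. The standard error given with a log2 fold change is its size divided by the root of the F statistic, so it repeats the test. DESeq2 1.42.0 served as an alternative. Ratios between members were taken as log2 counts with 0.5 added and compared by an exact permutation test. Correlations used log2 CPM with a prior count of 2. The scripts were tested on simulated data.

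Libraries of a group differed by more than counting error: chi-square per gene averaged 2.20 to 8.29 in control pairs, 3.52 to 16.9 among compressed replicates 1 to 5, and 170 to 228 where compressed replicate 6 was 1 of the pair. No library was a copy of another. The labels do not say whether replicate numbers pair the libraries. Same-numbered libraries correlated at -0.12 to 0.040 once group means were removed. Those means include compressed replicate 6, so this check cannot exclude pairing. Alternatives were library size alone, RLE factors, a filter on mean normalized counts over 50 or none, the replicate block, removal of the transcript length trend, a threshold of 0.01, and each library left out.

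The members and lists were chosen with earlier results of these data known. From each list the text names called genes with the largest change (up to 4 each way, mean of 1 CPM or more in the higher group), called genes that go against most of their list, and Fcgrt, Trim21 and Tyrobp. Some genes that the rules name are not reported here. Symbols matched for 164 of 167 listed genes. Protein sequences were not used here.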

Additional observations from a re-analysis of the deposited data

Results flagged for a closer look

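In 122 groups of 6 libraries (the members, their ratios and the named list genes) the library farthest out was compared with the range of its group by Dixon's criterion, and 32 stood apart, where chance alone gives about 1 in 20 groups. Of these, 25 were compressed replicate 6, the library whose counts fall with transcript length. Among the members it held 438 CPM of Fcer1g and 76.0 CPM of Syk. Among log2 ratios it stood apart for Fcgr1 to Fcer1g (-3.13), Fcgr1 to Syk (-0.60), Fcgr2b to Fcer1g (-2.82), Fcgr2b to Syk (-0.30), Fcgr3 to Syk (-0.49), Fcgr4 to Fcer1g (-6.18), Fcgr4 to Syk (-3.65) and Fcer1g to Syk (2.53), each of which includes Fcer1g or Syk. No ratio between 2 receptors set it apart.

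Among list genes the same library was highest for Tyrobp (426 CPM), Hcst (16.0 CPM), Marcksl1 (622 CPM), Rac2 (841 CPM) and Ncf4 (173 CPM). It was lowest for Prkcd (175 CPM), Lcp2 (423 CPM), Nfatc1 (137 CPM), Pik3cd (44.0 CPM), Cd33 (54.2 CPM), Myo1e (176 CPM), Elmo1 (68.4 CPM), Crkl (42.6 CPM), Wipf1 (93.7 CPM) and Ncf1 (538 CPM). The part of this library's length trend in each value was not tested gene by gene.

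Other libraries stood apart less often. Control replicate 5 was low for Fcgr4 (4.78 CPM) and Pirb (1.75 CPM). Control replicate 3 was low in the log2 ratio of Fcgr1 to Fcgr3 (1.38) and of Fcgr1 to Fcer1g (-2.25) and high for Marcksl1 (272 CPM). Fcrl1 was low in control replicate 1 (89.5 CPM), and Clec7a was high in compressed replicate 5 (34.5 CPM).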

How the results depend on the processing

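Under 20 alternatives the log2 fold change stayed between -0.46 and -0.37 for Fcgr1, 0.52 and 0.62 for Fcgr2b, 1.28 and 1.37 for Fcgr3 and 0.26 and 0.33 for Fcgr4, with edgeR or DESeq2 adjusted p of at most 0.0372, and no result reversed. Fcer1g ran from 0.05 to 0.24, and passed only with the transcript length trend removed (0.12, edgeR adjusted p = 0.0397). Syk ran from 0.37 to 0.54 and missed only a stricter adjusted p of 0.01 (0.43, edgeR adjusted p = 0.0112). Leaving out each library in turn gave 0.05 to 0.24 for Fcer1g, 0.39 to 0.54 for Syk, and 55 to 89 list genes higher and 9 to 25 lower, the highest counts without compressed replicate 6. List genes called lower numbered 13, but 21 with library size alone and 8 at an adjusted p of 0.01. Over all genes library size alone called 3079 higher and 4050 lower, against 3677 and 3283, and moved the median log2 fold change from 0.02 to -0.04. With the replicate block, edgeR gave 3299 higher and 3094 lower, although whether the numbers pair the libraries is not known. This block gave -0.40 for Fcgr1, 0.58 for Fcgr2b, 1.34 for Fcgr3, 0.32 for Fcgr4 and 0.18 for Fcer1g. For Syk it gave 0.41 (edgeR adjusted p = 0.0303), and no member's call changed. As a paired exact sign-flip test, whose smallest p is 0.0312, the replicate block gave Fcgr1 to Fcgr2b -0.97 (adjusted p = 0.0586), Fcgr3 to Fcgr2b 0.76 (adjusted p = 0.0586) and Fcgr4 to Fcgr2b -0.26 (adjusted p = 0.0852), none of which passed. With that smallest p, adjustment over 15 pairs leaves little room to pass, so the sign-flip test decides nothing about these ratios. For single list genes, ratios of other pairs and counts per list, 1189 results kept their side of the threshold, 51 lost and 3 gained a call and 28 counts moved by over 1.5 times; the causes were not tested. Depth limits Fcgr4 and list genes near 1 CPM most, and p-values cover the spread between these libraries only.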
